A study of Mus musculus with 4 samples.

Results

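The genes described here are the mitochondrial solute carriers and ion exchangers: every gene whose symbol starts with Slc25 or Vdac, together with Mpc1, Mpc2, Letm1 and Ucp2. Probe sets with a single gene symbol in the platform annotation were taken, which gave 77 of 22690 probe sets and 38 of 12394 genes. Mpc2, Ucp2, Slc25a1 and Slc25a12 were not analysed here.

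RNA came from mouse osteoclast cultures of the C57BL/6 strain on 4 Affymetrix arrays, 2 of NFATc1-deficient and 2 of wild-type cultures. The deficient mice carried NFATc1 fl/fl alleles and the MxCre+ transgene, whose Cre is driven by an interferon-responsive promoter and was induced with polyIC. The wild-type mice carried the same NFATc1 fl/fl alleles without the transgene (MxCre-), so floxed alleles were common to both groups, and the labels do not say whether wild-type mice received polyIC. Marrow precursors sorted as c-Kit and c-Fms positive and as CD11b, CD3e and B220 negative were plated at 20000 cells per well. Cultures received M-CSF and RANKL, which together turn such precursors into osteoclasts, and were taken on day 3. Cells came from 3 mice for replicate 1 and 4 mice for replicate 2 (ages: not given in the sources).

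The inner mitochondrial membrane is closed to most solutes. Carriers of the SLC25 family exchange nucleotides, phosphate, carboxylic acids, amino acids and cofactors across it, and the mitochondrial pyruvate carrier and LETM1 move pyruvate and cations. The VDAC channels let the same metabolites through the outer membrane. Osteoclasts are rich in mitochondria, and NFATc1 is the transcription factor that directs their differentiation downstream of RANK.

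Values were MAS5 signals on a linear scale, and changes are differences of log2(signal + 23.3), NFATc1-deficient minus wild-type. The offset of 23.3 was the 25th percentile of all values, so a change of a dim gene is understated. Each adjusted p comes from limma across 13577 probe sets with Benjamini-Hochberg adjustment at a threshold of 0.05, and a gene is represented by its brightest tested probe set. Array medians lay between 111.6 and 130. Nfatc1 itself read 3018 and 4098 in the deficient cultures, against 5434 and 6147 in wild-type cultures (log2 change -0.71, SE 0.15, limma adjusted p = 0.0104). Without NFATc1-deficient replicate 1 this change was smaller, at -0.49. A second Nfatc1 probe set read 1718 and 2079 in the deficient cultures, against 2681 and 2860 in wild-type cultures (log2 change -0.55, limma adjusted p = 0.0129). The labels do not say which part of the gene was deleted, so these probes may lie outside it. The source of the remaining signal was not tested. All 6 osteoclast markers measured were lower, with summed signals of 11121 and 15911 in the deficient cultures against 29106 and 33291 in wild-type cultures, and Calcr, the calcitonin receptor, changed by -3.90. Of 8 granulocyte markers 4 were higher, and their summed signal was 14900 and 7287 in the deficient cultures, against 4908 and 5812 in wild-type cultures. Macrophage markers summed to 18070 and 17978 in the deficient cultures, against 22131 and 26230 in wild-type cultures, with 2 of 5 tested markers lower and 1 higher. Erythroid markers summed to 137 and 202 in the deficient cultures, against 149.5 and 108 in wild-type cultures, and Alas2 was below 23.3 on every array. The lymphoid sums were 597.5 and 548 in the deficient cultures, against 482 and 308 in wild-type cultures, with 1 of 2 tested markers higher. The stromal sums were 303 and 231 in the deficient cultures, against 292 and 221 in wild-type cultures. The part of these cell types in the results below was not tested, and in these bulk cultures fewer cells of a type and less RNA per cell cannot be told apart.

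Of the carriers and channels tested, 5 passed the threshold. Letm1, Slc25a39, Slc25a45 and Slc25a11 fell in the deficient cultures, and Slc25a24 rose. Of 38 genes, 34 had a tested probe set, and the other 4 (Slc25a2, Slc25a23, Slc25a35 and Slc25a48) read at most 82.3 on any array. The 4 lower genes made up 11.8% of the 34, against 11.9% lower among all 7798 tested genes. The higher gene made up 2.94%, against 12.9% higher among all tested genes. The share of lower calls was thus near that of all genes and is no result about the family. The median change was -0.12 over the 34 genes and 0.03 over all genes, and 20 of the 34 changes were below 0. Both deficient signals lay below both wild-type signals for 15 genes (44.1%), against 29.7% of all tested genes, and above them for 5 (14.7%), against 34.3%. At the level of probe sets, 10 of 63 tested were lower (15.9%, against 11.4% of all) and 1 was higher (1.59%, against 12.8%), where 3 of the lower ones belonged to Slc25a39 and 2 each to Slc25a4 and Vdac1.

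**Figure D1:**
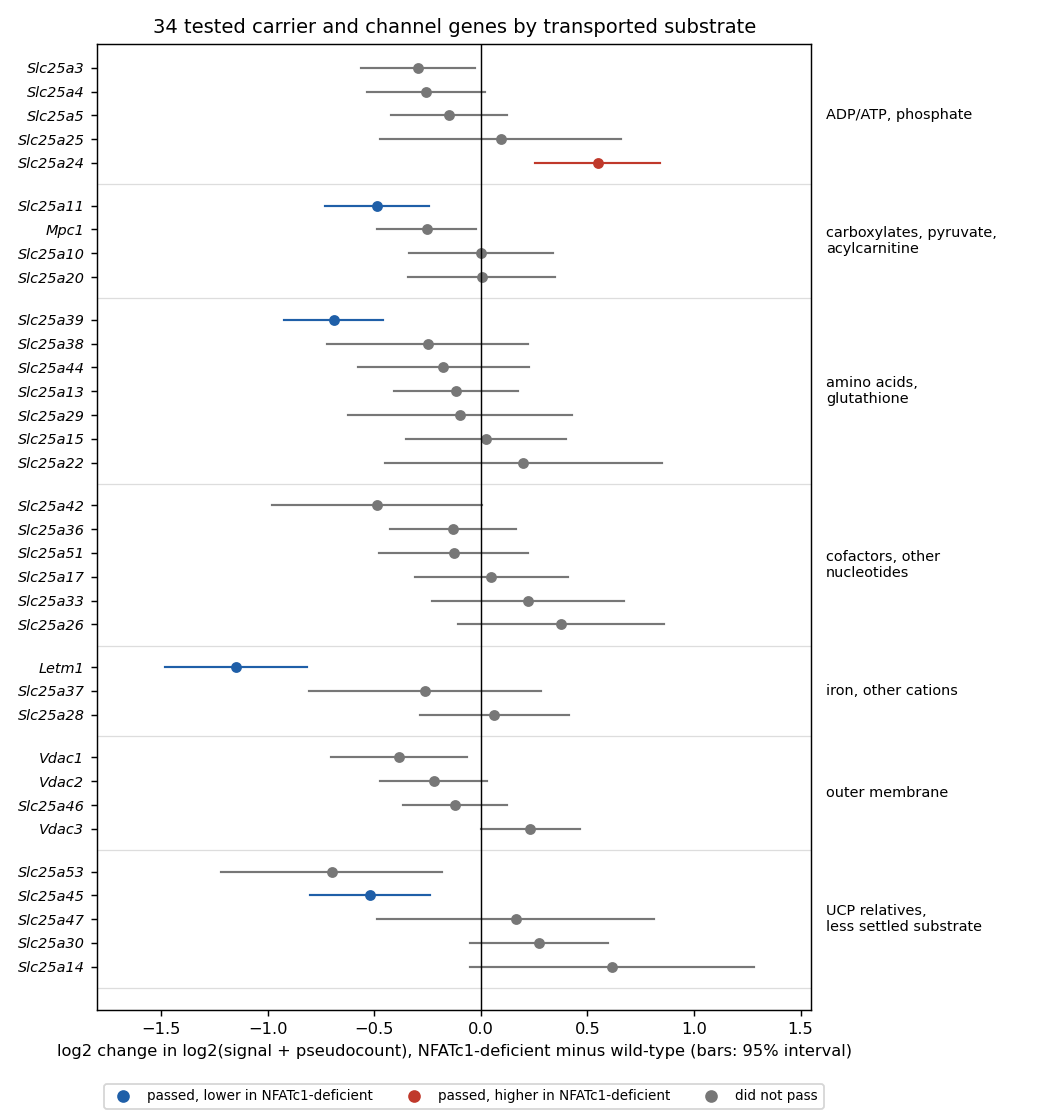
Log2 change in log2(signal + 23.3), NFATc1-deficient minus wild-type, for the 34 tested genes at their brightest probe set, grouped by transported substrate (points; bars are 95% intervals from limma). Letm1 has the lowest value at -1.15, and Slc25a24 is the only gene marked as higher.

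Letm1 and Slc25a39 had the falls that withstood the removal of any array. Letm1, an inner-membrane exchanger of cations for protons, read 293 and 328 in the deficient cultures and 667 and 768 in wild-type cultures. The groups were far apart, with the deficient mean at 43.3% of the wild-type mean. The log2 change was -1.15 (SE 0.15, limma adjusted p = 0.00120). Between same-numbered arrays, a pairing that the labels do not settle, it was -1.13 for replicate 1 and -1.17 for replicate 2. Its other 3 tested probe sets had mean signals between 48.9 and 96.0 in either group and changes of 0.21, -0.47 and 0.09. None of those passed, and in the mean of its probe sets Letm1 had a change of -0.33 (limma adjusted p = 0.307).

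Slc25a39, a carrier that brings glutathione into mitochondria, fell at every probe set. The brightest read 3985 and 4252 in the deficient cultures, against 6523 and 6783 in wild-type cultures. All deficient signals were well below all wild-type signals, with a log2 change of -0.69 (SE 0.10, limma adjusted p = 0.00221). Between same-numbered arrays the change was -0.71 for replicate 1 and -0.67 for replicate 2. A second probe set read 2342 and 2279 in the deficient cultures, against 4080 and 3653 in wild-type cultures (log2 change -0.73). The dimmest read 551 and 727 in the deficient cultures, against 1510 and 1655 in wild-type cultures (log2 change -1.29). Their common direction differs in size, since the deficient mean was 61.9%, 59.8% and 40.4% of the wild-type mean at the brightest, middle and dimmest probe set. The brightest and middle ones carry the suffix of probe sets that may bind related transcripts, and the dimmest does not.

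The other 3 changes were smaller and rested on more of the arrays. Slc25a11, the carrier that exchanges oxoglutarate for malate, read 1581 and 1747 in the deficient cultures and 2325 and 2354 in wild-type cultures. The groups did not overlap, and the log2 change was -0.49 (SE 0.11, limma adjusted p = 0.0120). Slc25a45, a carrier whose substrate is less settled, read 596 and 641 in the deficient cultures and 935 and 861 in wild-type cultures. It too was separated, with a log2 change of -0.52 (SE 0.12, limma adjusted p = 0.0168). Without NFATc1-deficient replicate 1 the limma adjusted p was 0.0820 for Slc25a11 and 0.0730 for Slc25a45, and without wild-type replicate 1 it was 0.0611 for Slc25a45. Slc25a24, a calcium-regulated carrier that exchanges ATP-Mg for phosphate, read 695 and 759 in the deficient cultures, against 480 and 500 in wild-type cultures. Both deficient signals were above both wild-type signals, and the log2 change was 0.55 (SE 0.13, limma adjusted p = 0.0165). Without NFATc1-deficient replicate 2 its change was 0.49 (limma adjusted p = 0.0712).

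**Figure D2:**
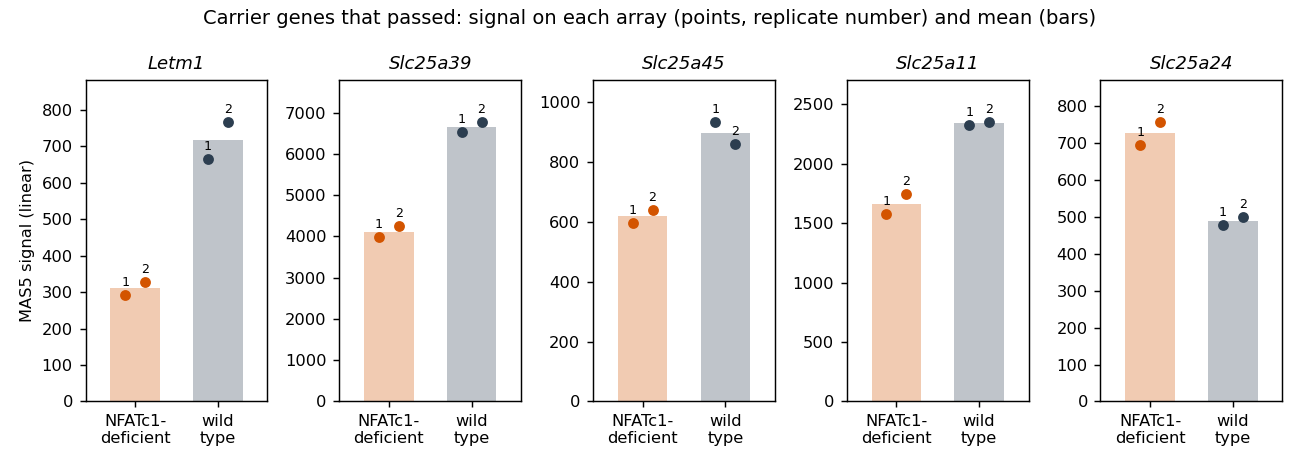
MAS5 signal (linear axis from 0) on each array for the 5 genes that passed, with NFATc1-deficient arrays left of wild-type arrays (points carry the replicate number, bars are the mean of 2 arrays). In each panel the arrays of the groups are separated, with Slc25a24 higher and the other genes lower in the deficient cultures.

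Promoter windows were read to show the sequence upstream of genes that moved in opposite directions. RefSeq windows of GRCm38.p6, from 250 bases before to 50 after the start of transcription, matched 29 of the 38 genes with 40 windows in all. The Slc25a39 window is chr11:102407468-102407767 on the minus strand, that of Slc25a11 is chr11:70646990-70647289 on the minus strand, and that of Slc25a24 is chr3:109122899-109123198 on the plus strand. They are given 5′ to 3′ in lower case, and capitals mark matches to any of the motifs searched.
Slc25a39: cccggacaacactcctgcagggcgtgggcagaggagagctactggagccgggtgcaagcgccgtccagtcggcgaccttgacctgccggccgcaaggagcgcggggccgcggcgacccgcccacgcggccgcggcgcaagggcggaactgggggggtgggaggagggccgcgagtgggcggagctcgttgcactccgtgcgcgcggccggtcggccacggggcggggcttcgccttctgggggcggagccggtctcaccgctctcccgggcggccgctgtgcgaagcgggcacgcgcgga
Slc25a11: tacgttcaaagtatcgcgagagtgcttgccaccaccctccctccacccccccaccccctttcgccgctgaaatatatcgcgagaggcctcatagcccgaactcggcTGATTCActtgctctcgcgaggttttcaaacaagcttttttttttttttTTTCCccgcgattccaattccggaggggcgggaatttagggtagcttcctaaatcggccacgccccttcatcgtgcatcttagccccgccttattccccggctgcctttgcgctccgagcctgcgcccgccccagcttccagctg
Slc25a24: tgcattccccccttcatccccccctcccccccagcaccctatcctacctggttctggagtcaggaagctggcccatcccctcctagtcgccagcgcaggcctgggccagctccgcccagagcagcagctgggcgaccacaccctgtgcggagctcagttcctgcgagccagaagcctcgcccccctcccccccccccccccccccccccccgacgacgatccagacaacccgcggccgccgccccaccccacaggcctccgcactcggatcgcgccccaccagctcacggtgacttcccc
Matches on both strands were sought for TNAAGGTCA (bound by estrogen-related receptors), the NRF-1 palindrome, CACGTG (E-box), TGACGTCA (cAMP response element), TGANTCA (AP-1) and GGAAA (core of NFAT sites). The Slc25a11 window held the AP-1 letters 144 bases and the NFAT core 95 bases before the start, and the Slc25a39 and Slc25a24 windows held no match. The windows of Letm1 and Slc25a45, which also passed and are not printed here, held no match either. None of the 29 genes had the estrogen-related receptor letters, which 1.43% of all genes with a window had (1.28% of all 32851 windows). The NFAT core occurred in 12 of the 29 genes (41.4%), against 64.4% of all genes with a window, and the E-box in 5 (17.2%), against 8.09%. The AP-1 letters occurred in Slc25a11 and Slc25a13, the cAMP response element in Slc25a25 and Slc25a36 and the NRF-1 letters in Slc25a3, against 8.97%, 2.03% and 5.19% of all genes. Windows of the carriers were richer in G and C, with a median of 60.7% against 52.7% over all windows. A match of letters is a description and shows no binding.

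Among the carriers of adenine nucleotides and phosphate, Slc25a24 rose and the carriers that serve ATP synthesis did not pass at their brightest probe sets. Slc25a3, which brings phosphate to ATP synthase, read 8530 and 9300 in the deficient cultures and 10144 and 11752 in wild-type cultures. The groups were separated, with a log2 change of -0.29 (95% interval -0.56 to -0.03, limma adjusted p = 0.107). Slc25a4, the ADP/ATP exchanger typical of muscle, read 6397 and 5944 in the deficient cultures and 6725 and 8095 in wild-type cultures (log2 change -0.26, 95% interval -0.53 to 0.02, limma adjusted p = 0.162). Its other 2 bright probe sets did fall, by 0.45 (limma adjusted p = 0.0260) and 0.41 (limma adjusted p = 0.0388) on the log2 scale, so the call depends on the probe set. The remaining Slc25a4 probe set read at most 17.5 on any array.

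Slc25a5, the widely expressed ADP/ATP exchanger, had 8 tested probe sets and none passed. The brightest read 10002 and 10444 in the deficient cultures, against 10408 and 12372 in wild-type cultures, and the groups overlapped (log2 change -0.15, 95% interval -0.42 to 0.12). Its probe sets ran from -0.34 to 0.31 and 6 of the 8 were below 0. The lowest read 8000 and 8608 in the deficient cultures and 9835 and 11230 in wild-type cultures (limma adjusted p = 0.0614). The highest read 2262 and 1970 in the deficient cultures and 1765 and 1643 in wild-type cultures (limma adjusted p = 0.0873). Since 6 of the 8 carry the suffix of probe sets that may bind related transcripts, and Slc25a4 and Slc25a5 are close relatives, values of this pair are uncertain. Slc25a25, a relative of Slc25a24, read 148.5 and 211 in the deficient cultures and 198 and 137 in wild-type cultures. Those values overlapped (log2 change 0.09, limma adjusted p = 0.826), and Slc25a23 stayed at or below 23.6 on all arrays and was not tested.

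**Figure D3:**
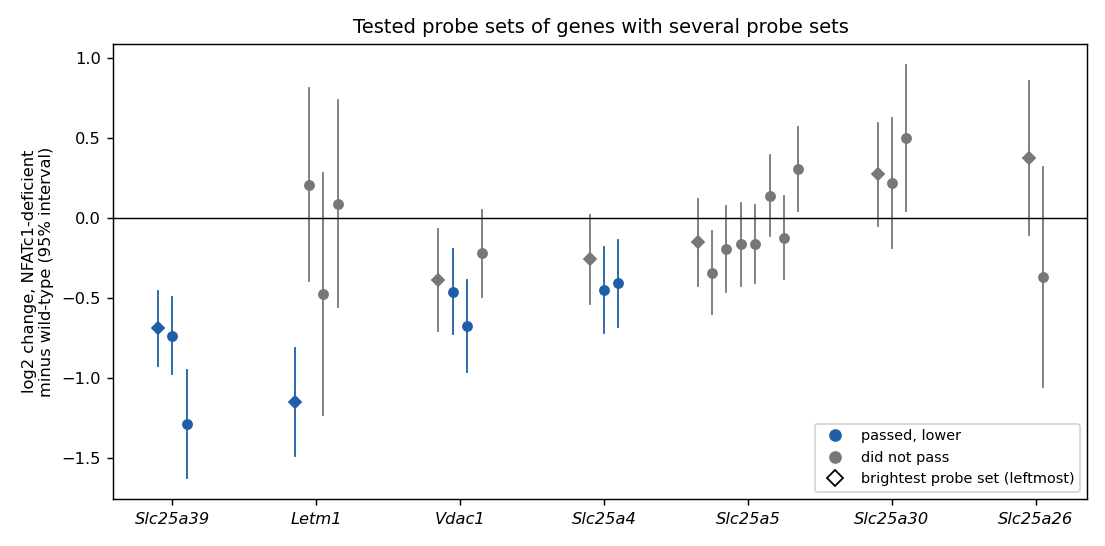
Log2 change of every tested probe set, NFATc1-deficient minus wild-type, for 7 genes with several probe sets (bars are 95% intervals; diamonds mark the brightest probe set, and dimmer ones follow to the right). All 3 Slc25a39 probe sets passed as lower, whereas those of Slc25a5 ran from -0.34 to 0.31 and none passed.

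Carriers of carboxylates and acyl groups held the Slc25a11 fall and 3 genes that did not pass. Mpc1, a subunit of the pyruvate carrier, read 1999 and 1974 in the deficient cultures and 2328 and 2422 in wild-type cultures. The arrays were separated, but the change of -0.25 (95% interval -0.49 to -0.02, limma adjusted p = 0.104) did not pass. Slc25a10, the dicarboxylate carrier, read 469 and 558.5 in the deficient cultures and 540 and 484 in wild-type cultures. Slc25a20, which takes acylcarnitines in for fatty acid oxidation, read 601.5 and 515.5 in the deficient cultures and 609.5 and 506 in wild-type cultures. Both overlapped fully, with changes of 0.00 and 95% intervals of -0.34 to 0.34 for Slc25a10 and -0.34 to 0.35 for Slc25a20.

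Apart from Slc25a39, none of the 7 tested amino acid and glutathione carriers passed. Slc25a13 (citrin), which exports aspartate in exchange for glutamate, read 631 and 591 in the deficient cultures and 690 and 637 in wild-type cultures. The deficient arrays were lower by little (log2 change -0.11, 95% interval -0.41 to 0.18, limma adjusted p = 0.565). Slc25a44, which imports branched-chain amino acids, had a change of -0.18, with 0.17 and 0.08 at its other probe sets. Slc25a38, which supplies glycine for heme synthesis, had -0.25. The ornithine carrier Slc25a15 had 0.02 and the basic amino acid carrier Slc25a29 -0.10. Another tested Slc25a29 probe set had a change of -0.61 (limma adjusted p = 0.118). Slc25a22, a glutamate carrier, had the widest spread within a genotype of all 34 genes. It read 402 and 260 in the deficient cultures and 206 and 375 in wild-type cultures. The replicate order was opposite in the groups. The difference between same-numbered arrays was 0.89 for replicate 1 and -0.49 for replicate 2.

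None of the 6 carriers of cofactors and other nucleotides passed. Slc25a42, which exchanges coenzyme A, had the change of largest size among them at -0.49 (95% interval -0.98 to 0.00, limma adjusted p = 0.139). It read 110.0 and 136 in the deficient cultures, against 192 and 171 in wild-type cultures, without overlap. Slc25a26, the S-adenosylmethionine carrier, had 0.38 at its brighter and -0.37 at its dimmer probe set, so its direction was not settled. The NAD carrier Slc25a51 had -0.13, and another probe set 0.12. The pyrimidine nucleotide carriers Slc25a33 and Slc25a36 had 0.22 and -0.13, and the peroxisomal carrier Slc25a17 had 0.05.

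Of the iron carriers, neither mitoferrin passed. Slc25a37 (mitoferrin-1), the carrier of erythroid iron supply, read 174 and 124 in the deficient cultures and 209.5 and 157 in wild-type cultures. These signals overlapped (log2 change -0.26, 95% interval -0.81 to 0.28, limma adjusted p = 0.472). Slc25a28 (mitoferrin-2), its relative in other cells, read 351 and 384 in the deficient cultures, against 368 and 334 in wild-type cultures. Its change was 0.06 (95% interval -0.29 to 0.41, limma adjusted p = 0.808).

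The outer membrane channels differed in sign. Vdac1, the most studied isoform, was lower on both deficient arrays at its 4 tested probe sets, of which 2 passed and the brightest did not. The brightest read 4802 and 5300 in the deficient cultures, against 5771 and 7543 in wild-type cultures (log2 change -0.39, limma adjusted p = 0.0792). The probe set with the largest fall read 2443 and 2846 in the deficient cultures, against 3888 and 4583 in wild-type cultures (log2 change -0.67, SE 0.13, limma adjusted p = 0.00600). This probe set is also the only tested one of Vdac1 without the suffix for possible binding of related transcripts. Vdac2, which restrains the cell death protein BAK, read 6981 and 7088 in the deficient cultures and 7683 and 8753 in wild-type cultures (log2 change -0.22, 95% interval -0.47 to 0.03, limma adjusted p = 0.185). Vdac3 lay in the other direction, with 4829 and 4678 in the deficient cultures and 3904 and 4187 in wild-type cultures. Its groups were separated, yet the change of 0.23 (95% interval from just below 0 to 0.46, limma adjusted p = 0.137) did not pass. Whether Vdac3 differed from Vdac1 in its change was not tested. Slc25a46, an outer membrane protein of mitochondrial dynamics, had a change of -0.12 (limma adjusted p = 0.457).

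Relatives of the uncoupling proteins had positive changes that did not pass. Slc25a14, a brain-enriched relative, read 151 and 112 in the deficient cultures and 101 and 57.7 in wild-type cultures, without overlap (log2 change 0.61, 95% interval -0.05 to 1.28, limma adjusted p = 0.167). Slc25a30 had positive changes at its 3 tested probe sets, from 0.22 to 0.50, and none passed. Among carriers without a settled substrate, Slc25a53 read 82.2 and 102 in the deficient cultures, against 169 and 159 in wild-type cultures. Its change of -0.70 was larger than that of Slc25a45, but it came from dim signals and missed the threshold (SE 0.23, limma adjusted p = 0.0558). It passed with quantile scaling (limma adjusted p = 0.0350), with median scaling (0.0323), without the variance trend (0.0381) and in the mean of probe sets (0.0448). Slc25a53 has only 1 probe set, so that mean left its signals unchanged and adds no other probe set. Slc25a47, known as a liver carrier, overlapped between groups (0.16, limma adjusted p = 0.729).

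Calls among the brightest carriers depended on the arrays included. Wild-type replicate 2 was above wild-type replicate 1 for Slc25a3, Slc25a4, Slc25a5, Vdac1 and Vdac2 at their brightest probe sets. Without wild-type replicate 1 the lower genes numbered 7, because Slc25a3 (log2 change -0.40), Slc25a4 (-0.39), Vdac1 (-0.58) and Vdac2 (-0.31) then passed and Slc25a45 did not. The higher genes were then 2, with Slc25a14 (0.92) added. Without NFATc1-deficient replicate 1 only Letm1 and Slc25a39 remained lower. Over the 34 genes the median distance between arrays of a genotype was 0.13 on the log2 scale in the deficient cultures and 0.19 in wild-type cultures.

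Genes that work with the carriers were read from lists, and Ckmt1, Got1, Crat and Ak3 had larger falls than Letm1, differences that were not tested. The lists were chosen with earlier results of these data known. Their shares beside those of all genes are therefore descriptions and no independent evidence about a pathway. Of 10 tested enzymes of pyruvate and citrate metabolism 6 fell and none rose, against 11.9% lower among all genes, with a median change of -0.59. Dlat, a subunit of pyruvate dehydrogenase, changed by -0.83, Idh1, a cytosolic isocitrate dehydrogenase, by -0.83, and malic enzyme Me1 by -0.82. The other Dlat probe sets had -0.92, which passed, and -0.44, which did not, and the other Idh1 probe set fell by 0.44 on the log2 scale. Of 4 malate-aspartate shuttle enzymes, which work with Slc25a11 and Slc25a13, Got1 and Mdh1 fell. Got1, the cytosolic aspartate aminotransferase, read 593 and 543 in the deficient cultures, against 1592 and 1878 in wild-type cultures (log2 change -1.57, SE 0.13, limma adjusted p = 0.000209). Mdh1, the cytosolic malate dehydrogenase, changed by -0.42 at its brightest probe set. Its other 2 tested probe sets fell further, by 1.10 (limma adjusted p = 0.00173) and 1.01 (limma adjusted p = 0.000947) on the log2 scale. The mitochondrial enzymes Got2 (-0.22) and Mdh2 (-0.12) did not pass, although a second Mdh2 probe set fell by 0.48 on the log2 scale. Of 3 carnitine shuttle enzymes Crat (-1.25) and Cpt1a (-0.49) fell, although other Cpt1a probe sets had -0.25 and 0.09 and did not pass. Cpt2, which acts beside Slc25a20 in the matrix, had 0.16.

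Of 9 tested genes of ATP synthase and mitochondrial kinases 4 fell (44.4%, against 11.9% of all genes) and none rose, with a median of -0.36. Ckmt1, the mitochondrial creatine kinase coupled to the ADP/ATP exchangers, read 31.8 and 45.2 in the deficient cultures, against 240 and 182 in wild-type cultures (log2 change -1.92, SE 0.27, limma adjusted p = 0.00164). Ak3, a matrix kinase that phosphorylates AMP with GTP, changed by -1.24, Atp5d by -0.64 and Atp5o by -0.52. The second Atp5o probe set overlapped between the groups (0.08, limma adjusted p = 0.675), whereas Atp5a1, which did not pass at its brightest probe set (-0.36), fell by 0.53 on the log2 scale at another. Of 9 genes of heme and iron-sulfur cluster synthesis 4 fell (44.4%) and none rose, namely Isca1 (-0.82), Iscu (-0.54), Fech (-0.53) and Isca2 (-0.50), with a median of -0.24. Of 13 other mitochondrial transporters 2 fell (15.4%, near the 11.9% of all genes) and none rose, Ghitm (-0.47) and Mtch2 (-0.43). Their next brightest probe sets fell further, Ghitm by 0.87 (limma adjusted p = 0.00113) and Mtch2 by 0.92 (limma adjusted p = 0.00183) on the log2 scale. The dimmest tested probe set of Mtch2 had -0.25 and did not pass. Letmd1 (-0.70), Abcb8 (-0.62) and Mrs2 (-0.59) had changes of larger size that did not pass, although a second Abcb8 probe set fell by 1.54 on the log2 scale. Tspo, an outer membrane protein that binds cholesterol, did not pass at its brightest probe set (0.24) and rose at its other 2, by 0.67 (limma adjusted p = 0.0166) and 0.58 (limma adjusted p = 0.0104). Carrier import takes carriers through the outer membrane and inserts them into the inner membrane. Of 12 genes of this list, Timm22 (-0.49) and Tomm22 (-0.43) fell and the receptor Tomm70a rose by 0.63. The list median was 0.04. These shares of 16.7% lower and 8.33% higher stand beside 11.9% and 12.9% of all genes, so the count shows little about the list. The second probe sets of Timm22 (-0.50) and Tomm22 (-0.20) did not pass. The other 3 Tomm70a probe sets had 0.22, 0.23 and -0.01, and none of those passed. Tomm20, another import receptor, had 0.03 at its brightest probe set and rose at 2 of its other 4, by 0.43 (limma adjusted p = 0.0245) and 0.51 (limma adjusted p = 0.00799).

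Several of these calls rested on particular arrays when read at the brightest probe set, and dimmer probe sets of these genes are not given for left-out arrays. Without NFATc1-deficient replicate 1 the limma adjusted p was 0.303 for Mdh1, 0.129 for Cpt1a, 0.132 for Ghitm, 0.130 for Atp5o, 0.0791 for Timm22, 0.0743 for Tomm22, 0.0726 for Fech, 0.0689 for Me1 and 0.0566 for Atp5d. Without NFATc1-deficient replicate 2 it was 0.280 for Mtch2, 0.104 for Atp5o, 0.0979 for Tomm22, 0.0824 for Isca2, 0.0696 for Mdh1 and 0.0502 for Ghitm. Without wild-type replicate 2 it was 0.116 for Tomm22, 0.0989 for Mtch2, 0.0813 for Atp5o, 0.0709 for Isca2 and 0.0648 for Me1, and without wild-type replicate 1 it was 0.0834 for Cpt1a. Got1, Crat, Ckmt1, Ak3, Dlat, Idh1, Isca1, Iscu and Tomm70a passed with any array left out.

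**Figure D4:**
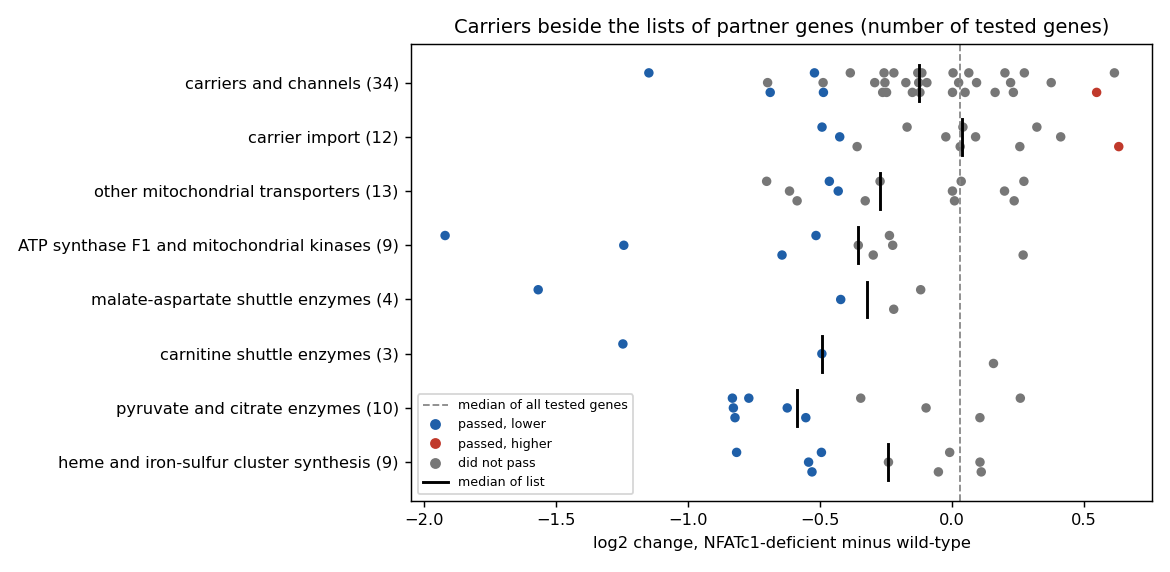
Log2 change of each tested gene, NFATc1-deficient minus wild-type, for the 34 carriers and channels and for 7 lists of genes that work with them (points; black lines are list medians, and the dashed line is the median of all genes). The carriers centre on -0.12 and the pyruvate and citrate enzymes on -0.59, and Ckmt1 has the lowest value at -1.92.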

How the data were processed

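Total RNA of 4 osteoclast cultures, 2 per genotype, was hybridised as biotin-labelled cRNA, per the labels' protocols. Deposited values were linear probe set intensities, which per the submitters' processing notes the authors computed with MAS5. The values show scaling of each array, with a mean of 500.186 to 500.211 after the top and bottom tails were left out. Without detection calls, whether a low signal exceeds background is unknown, and the number of arrays limits precision. Of 22690 probe sets, 20393 had 1 symbol in the platform annotation, 691 several and 1606 none, and only those with 1 symbol were named.

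Signals were analysed as log2(signal + 23.3). Control probe sets (64) were removed, and other probe sets whose mean exceeded 61.95, the 40th percentile, were fitted with limma 3.58.1 in R 4.3.3 (lmFit, eBayes with an intensity trend, two-sided). Replicates are separate pools of mice. Members, substrate groups and lists were chosen with earlier results of these data known. The rule for named genes gave all 4 signals for carriers that passed with separated groups and, whatever their change, for Slc25a3, Slc25a4, Slc25a5, Slc25a11, Slc25a13, Slc25a20, Slc25a28, Slc25a37, Mpc1, Letm1, Vdac1, Vdac2 and Vdac3. It named up to 3 genes of largest change from each list. Signals of Slc25a10, Slc25a14, Slc25a22, Slc25a25, Slc25a42, Slc25a53, Got1 and Ckmt1, and the further genes and probe sets of the lists, were chosen after their values were seen. Lists are described by counts and medians. In simulated data for this comparison with 13577 probe sets, 10 of 50 changed by 1.5-fold were recovered, 31 of 50 at 2-fold, 46 of 50 at 4-fold and 48 of 50 at 8-fold, and 3 of 138 calls were false. Only those probe sets were changed, and the 138 calls compare with 3292 in the data. The adjustment is stricter when fewer probe sets change, so these recoveries do not give those of the data. Alternatives covered scaling, offset, filter, variance trend, replicate block, probe set choice, a fold rule and leaving out each array.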

Additional observations from a re-analysis of the deposited data

How the results depend on the processing

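Among the carriers 4 genes were lower and 1 higher. With each array left out in turn the lower genes numbered 2 to 7 and the higher genes 0 to 2, and over all probe sets 940 to 1546 were lower and 854 to 1945 higher. In those fits the lone array of a genotype is assumed to vary like the others. With quantile scaling 2 carriers were higher, because Vdac3 was added, and 6 lower, because Slc25a3 and Slc25a53 were added. Over all probe sets 1157 were higher without a filter and 990 without the variance trend, against 1740. With median scaling Slc25a11 did not pass (adjusted p = 0.0873) and without the variance trend neither did Slc25a11 (0.0636) nor Slc25a45 (0.0563). Letm1 did not pass in the mean of all its probe sets (0.307). Slc25a39 passed in every alternative run, with changes from -1.29 to -0.64. The other alternatives left 3 to 6 lower carriers and 1 higher, and no carrier that passed changed sign. Under the fold rule, at least 1.5-fold between means with separated groups and no test, the lower genes were Letm1, Slc25a39 and Slc25a53. The higher gene was Slc25a14, at 1.66-fold. Slc25a11 (1.41-fold), Slc25a45 (1.45-fold) and Slc25a24 (1.48-fold) fell short of that rule. Without probe sets that may bind related transcripts, an alternative chosen after seeing the data, Vdac1 was also lower. With the replicate number as a block 6 carriers were lower, Slc25a3 (adjusted p = 0.0398) and Vdac1 (0.0134) being added, and 1 higher, with 1799 lower and 2048 higher over all probe sets. The deviations of same-numbered arrays correlated at 0.13 over probe sets. Same-numbered samples share the replicate number and the count of mice, 3 for replicate 1 and 4 for replicate 2. The labels do not say whether they were processed together, so with 2 pairs a pairing is not settled. Across 466 combinations of carrier gene and fitted alternative, which do not include the fold rule, 442 kept their side of the threshold, 8 lost a call and 16 gained one. Most carrier changes were under 1.5-fold. The simulation recovered 10 of 50 at that size, but it changed far fewer probe sets than passed in the data. Its recovery is therefore not that of the data, where Slc25a11, Slc25a45 and Slc25a24 passed at less than 1.5-fold. A carrier that did not pass is not shown to be unchanged.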
